A study of Mus musculus with 16 samples.

Results

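Break sites of the DNA double strand that came back from mouse to mouse were described in cardiac myocytes with a deleted Lmna gene. They were chosen as regions with END-seq peaks in 2 or more of 3 mice, which held for 16117 of 37540 regions. Lmna encodes lamin A and C, the proteins of the meshwork under the inner nuclear membrane, and its loss in heart muscle is a known cause of dilated cardiomyopathy. END-seq maps break ends by joining an adaptor to them in the intact DNA, so that reads start at the break and pile up beside it. Myocytes of mouse hearts gave the 16 libraries of the series: 3 END-seq libraries of Myh6-Cre:LmnaF/F mice (cKO 1, cKO 2 and cKO 3), 3 END-seq libraries of wild-type mice, and 10 wild-type libraries for lamin A or IgG. In Myh6-Cre:LmnaF/F mice both Lmna alleles are floxed and Cre runs from the promoter of the cardiac myosin gene Myh6, so that the deletion falls in myocytes. The cells came from the heart by Langendorff perfusion, which digests the tissue through its own vessels. No group carried Cre with intact Lmna, and age and sex are not given in the labels. Only the 3 cKO lists are described below, and they were not tested against wild type.

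A peak is an interval in which the authors' caller found more reads than in the library's own background, and its fold is the authors' linear ratio of peak to background. On chromosomes 1 to 19 (build mm10), cKO 1, cKO 2 and cKO 3 had 28445, 12808 and 21118 peaks. Peaks of different lists that shared at least 1 bp were joined into regions. A region with peaks of 2 or more lists is called recurrent, and a region with peaks of 1 list is called lone. Of the 37540 regions, 8698 had a peak in all 3 lists, 7419 in 2 lists and 21423 in 1 list, so that 42.9% were recurrent. The depth of the libraries is unknown, so the absence of a peak from a list is no measure of the absence of breaks.

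In the list with the label cKO 1, the peak names start with WT-4, as they do in the list of WT 3, whereas cKO 2 and cKO 3 have names starting with KO-2 and KO-3. The label was kept, but it was not checked by any measurement that this library comes from a knockout mouse, and what rests on cKO 1 holds for the genotype only if its label is right. The list of cKO 1 is also the longest, and it had 489 peaks on chromosome Y, against 17 and 18 in cKO 2 and cKO 3. On chromosome X the 3 lists had 809, 805 and 1181 peaks, beside 28445, 12808 and 21118 on chromosomes 1 to 19. For its number of autosomal peaks, cKO 1 thus had the fewest on chromosome X. The part of these differences in the results was not tested, so the main values and the counts of genes are also given without cKO 1. Those regions numbered 9149, and 8698 of them also held a peak of cKO 1. Regions shared by cKO 1 and cKO 2 numbered 9960, and regions shared by cKO 1 and cKO 3 numbered 14404.

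The bases that recurrent regions cover at promoters are shown for 4 of the 6 protein-coding genes with the highest mean fold rank among promoter windows with at least 100 bases in peaks of all 3 lists (the others were Rnf39 and Olfr367-ps). Each window runs from 250 bases before to 50 bases after a transcription start site, 5′ to 3′ on the gene's strand, from RefSeq on GRCm38.p6, the assembly of the mm10 build. Capitals mark the bases that lay in peaks of all 3 lists. Ogdh encodes a subunit of the 2-oxoglutarate dehydrogenase of the citric acid cycle (chr11:6292308-6292607, plus strand). Tbce encodes a chaperone that helps to fold tubulin (chr13:14039589-14039888, minus strand). Lbh encodes a transcriptional cofactor named for limb, bud and heart (chr17:72918055-72918354, plus strand). Faf2 encodes a protein of the removal of misfolded proteins from the endoplasmic reticulum (chr13:54621534-54621833, plus strand).
Ogdh: 5gdh
Tbce: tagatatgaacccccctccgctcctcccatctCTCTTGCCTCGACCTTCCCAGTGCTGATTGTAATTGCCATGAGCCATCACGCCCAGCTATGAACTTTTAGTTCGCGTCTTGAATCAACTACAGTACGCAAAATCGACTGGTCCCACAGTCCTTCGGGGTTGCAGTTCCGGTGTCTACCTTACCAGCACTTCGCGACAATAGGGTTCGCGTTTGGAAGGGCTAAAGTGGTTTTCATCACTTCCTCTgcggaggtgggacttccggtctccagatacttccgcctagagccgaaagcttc
Lbh: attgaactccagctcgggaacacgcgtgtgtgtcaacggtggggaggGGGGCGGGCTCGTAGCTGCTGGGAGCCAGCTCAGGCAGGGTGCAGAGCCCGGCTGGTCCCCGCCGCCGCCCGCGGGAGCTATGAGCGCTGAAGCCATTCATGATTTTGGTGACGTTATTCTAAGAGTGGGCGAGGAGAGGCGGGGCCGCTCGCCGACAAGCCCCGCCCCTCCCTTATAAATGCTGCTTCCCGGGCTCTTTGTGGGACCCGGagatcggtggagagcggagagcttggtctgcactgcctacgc
Faf2: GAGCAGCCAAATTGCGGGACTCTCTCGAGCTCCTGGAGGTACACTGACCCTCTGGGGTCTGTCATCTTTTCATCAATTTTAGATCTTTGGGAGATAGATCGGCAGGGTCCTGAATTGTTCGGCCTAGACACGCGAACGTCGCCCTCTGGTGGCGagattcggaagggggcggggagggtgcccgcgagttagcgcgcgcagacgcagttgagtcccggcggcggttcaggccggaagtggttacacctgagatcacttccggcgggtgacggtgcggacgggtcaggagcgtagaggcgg

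At Ogdh the folds were 50.1, 38.8 and 49.2 in the cKO 1, cKO 2 and cKO 3 lists, and 127 of the 300 bases lay in all 3 peaks. The summits, the points of highest signal, lay 142, 139 and 141 bases before the start site. At Tbce the folds were 46.7, 35.2 and 46.9, and 215 bases lay in all 3 peaks. At Lbh the folds were 48.0, 32.3 and 34.6, and the summits lay 13, 14 and 7 bases before the start site. At Faf2 the folds were 44.6, 31.2 and 38.6, and the summits lay 121, 118 and 112 bases before the start site. At Tbce the summits lay 185, 204 and 192 bases before the start site, further apart than at the other 3 genes.

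Recurrent regions also covered microRNA hairpins, the folded precursors of these short regulatory RNAs. Of 919 hairpins on the autosomes with a sequence in the RefSeq table, 5 touched a recurrent region, and 3 lay in it from end to end. They are Mir153 (chr12:117250817-117250885, plus strand), Mir7680 (chr16:21256013-21256066, minus strand) and Mir23a (chr8:84208518-84208592, plus strand), the last a member of a microRNA cluster studied in cardiac hypertrophy. Capitals mark bases in peaks of at least 2 lists, which here are all bases.
Mir153: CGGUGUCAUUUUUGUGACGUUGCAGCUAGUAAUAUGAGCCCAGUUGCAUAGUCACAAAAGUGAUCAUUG
Mir7680: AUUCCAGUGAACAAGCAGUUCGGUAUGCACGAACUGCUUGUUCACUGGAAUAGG
Mir23a: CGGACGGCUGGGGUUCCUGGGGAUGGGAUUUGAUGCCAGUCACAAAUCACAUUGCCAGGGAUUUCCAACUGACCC

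The regions at Mir153 and Mir7680 were in all 3 lists, with folds of 21.8, 20.7 and 30.2 in the cKO 1, cKO 2 and cKO 3 lists at Mir153 and of 31.3, 15.6 and 19.8 at Mir7680. Mir23a had a fold of 18.6 in cKO 1 and 18.98 in cKO 3, and no peak in cKO 2.

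Whether a break site came back went with its fold. The share of peaks found in at least 1 other list was 55.1% in cKO 1, 81.3% in cKO 2 and 70.4% in cKO 3, with a mean of 68.9% ± 13.2 (SD, n = 3). The shortest list had the highest share. The share found in both other lists was 30.6%, 67.9% and 41.2%. Among the strongest 10% of peaks by fold, 99.1%, 100% and 99.8% were recurrent in the cKO 1, cKO 2 and cKO 3 lists. Among the weakest 10%, the shares were 8.68%, 13.4% and 8.03%. The difference was 89.6 ± 2.66 percentage points (SD, n = 3), with the same sign in 3 of 3 lists (exact sign-flip permutation over the 3 lists, two-sided, p = 0.25, the smallest that 3 lists allow). Without cKO 1 it was 92.4 points. Peaks with the same fold were kept in the same group, so the groups hold only about 10% each. The weakest held 2974, 1145 and 2490 peaks in the cKO 1, cKO 2 and cKO 3 lists.

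The share increased along the ranks in all 3 lists but at different steps. In cKO 2 it was 30.3% in the second 10% from the bottom and 76.2% in the next, at folds from 7.01 to 9.93. In cKO 3 it was 47.6% in the group of the same rank, and in cKO 1 it was 29.5%. Recurrence in all 3 lists came later along the ranks, with 21.7%, 88.3% and 40.3% of the peaks in the 10% of peaks just above the median of cKO 1, cKO 2 and cKO 3. Recurrent peaks had median folds of 23.8, 19.7 and 18.2 in the cKO 1, cKO 2 and cKO 3 lists, and lone peaks had 9.68, 5.26 and 5.24.

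**Figure D1:**
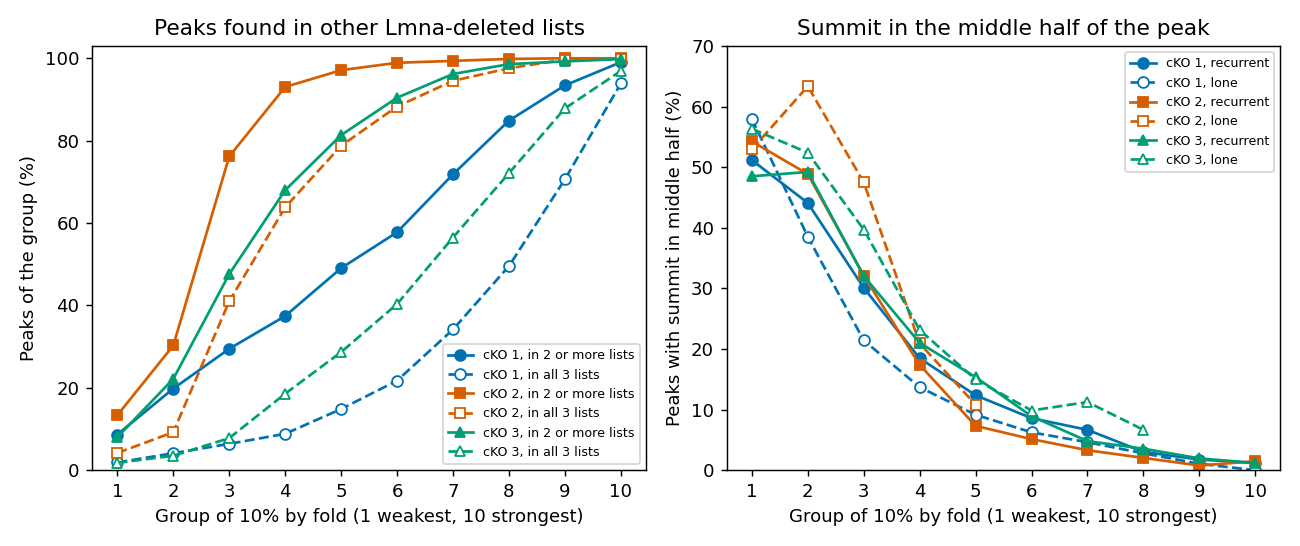
Peaks of each cKO list in groups of 10% by fold, from weakest to strongest. Left, the share (%) found in 2 or more lists (solid lines) or in all 3 lists (dashed lines); it reaches 99.1%, 100% and 99.8% in the strongest group of cKO 1, cKO 2 and cKO 3 for 2 or more lists. Right, the share (%) with the summit in the central 50% of the peak for recurrent (solid) and lone peaks (dashed, groups with at least 20 peaks of each kind), which falls with fold for both kinds.

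The mice also ranked shared sites alike. Of the 1000 strongest peaks, 730 were shared as a top peak by cKO 1 and cKO 2, 737 by cKO 1 and cKO 3, and 798 by cKO 2 and cKO 3. Over the 8698 regions in all 3 lists, Spearman's rho of the folds was 0.854, 0.876 and 0.907 for these pairs. The regions are not independent replicates, and the folds share the sequence and mappability of each place, so no p is given. The summits of paired peaks lay a median of 6, 6 and 5 bp apart in the same order, and from 97.3% to 97.8% of them lay within 50 bp. The agreement in place was therefore much finer than the median width of a recurrent region, 203 bp.

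The regions with the highest mean fold rank over the 3 lists, which were chosen by these folds, are given as a description. The strongest lay outside protein-coding genes on chromosome 3 (chr3:20948506-20948783), with folds of 64.7, 57.0 and 63.9 in the cKO 1, cKO 2 and cKO 3 lists. The next lay on chromosome 15 (chr15:82768227-82768554), also outside protein-coding genes, with 62.2, 57.5 and 62.4. The next lay in Vstm4 (chr14:32875312-32875636), which encodes a membrane protein with an immunoglobulin-like domain, with 63.4, 54.8 and 63.1. Of the 10 strongest regions, 2 touched a protein-coding gene extended by 1 kb, the other in 4930438A08Rik, and of the 100 strongest 44 did. By position, the other regions outside genes among these 10 were chr9:77695692-77696025, chr10:106004703-106005011, chr5:23911596-23911934, chr2:164157130-164157476, chr17:64414716-64415073 and chr2:137426978-137427297. Their mean folds ran from 58.4 to 59.9.

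The 10 genes with the strongest regions in all 3 lists were chosen by the same folds and began with Vstm4 and 4930438A08Rik. In Fgfr1, which encodes a receptor of fibroblast growth factors, the folds were 60.5, 53.4 and 60.7 in the cKO 1, cKO 2 and cKO 3 lists (chr8:25533172-25533508). In Cacna1d, which encodes the pore of an L-type calcium channel of pacemaker cells, they were 61.2, 52.8 and 61.4 (chr14:30158972-30159301). Lrig3, a membrane protein that acts on growth factor receptors, had 61.0, 54.3 and 58.7. Lnx2 (a ubiquitin ligase), Fam135b, Pstpip2 (a protein that binds the cytoskeleton), Pakap and Slc9a9 (a sodium-proton exchanger of endosomes) completed the 10 genes, with mean folds from 56.6 ± 3.69 to 58.3 ± 6.43 (SD, n = 3). In each of these 10 genes, cKO 2, whose highest fold on any chromosome from 1 to 19 was 57.5, had the lowest fold of the 3 lists.

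Recurrent peaks had larger median widths than lone peaks in each list. Median widths of recurrent peaks were 195, 177 and 175 bp in the cKO 1, cKO 2 and cKO 3 lists, against 155, 165 and 149 bp for lone peaks. The difference was 26 ± 14 bp (SD, n = 3) and had the same sign in 3 of 3 lists (exact sign-flip permutation, two-sided, p = 0.25, the smallest possible). Without cKO 1 the difference was 28.8 bp. Peaks in all 3 lists had medians of 212, 181 and 194 bp and those in exactly 2 lists 173, 161 and 154 bp, which in cKO 2 is below the 165 bp of its lone peaks. Width rose with fold, with Spearman's rho over peaks of 0.562, 0.360 and 0.477, given as a description. Within groups of 10% by fold that held at least 20 peaks of each kind, recurrent peaks had the larger median in 10 of 10 groups in cKO 1, 3 of 5 in cKO 2 and 7 of 8 in cKO 3. A wider peak also meets another peak more easily, and the part of this in the difference was not tested.

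**Figure D2:**
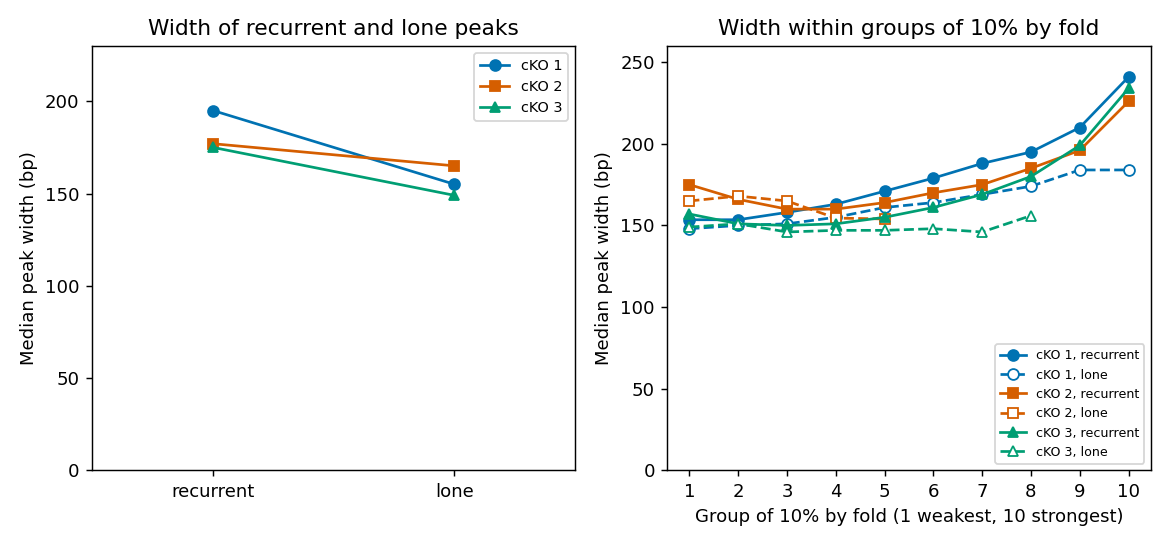
Median peak width (bp) of recurrent and lone peaks in each cKO list (left, a line per list) and within groups of 10% by fold (right; recurrent solid, lone dashed, groups with at least 20 peaks of each kind). The medians of recurrent peaks lie at 195, 177 and 175 bp in the cKO 1, cKO 2 and cKO 3 lists, each above that of the lone peaks of the same list.

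A few recurrent regions were far wider than the rest. There were 8 regions wider than 1000 bp, and all 8 were in all 3 lists, while no region of 1 or 2 lists was as wide. The widest covered 4406 bp on chromosome 1 (chr1:24611642-24616047) with folds of only 6.28, 4.32 and 4.81 in the cKO 1, cKO 2 and cKO 3 lists. Of the other 7, 2 lay near the start of the chromosome 9 assembly (chr9:3000078-3001523 and chr9:3034397-3035445). Regions on chromosome 4 (chr4:3089553-3091131), the widest of the 7, and chromosome 18 (chr18:3005294-3006483) lay at similar positions. The folds of the 7 ran from 7.47 in cKO 1 to 17.9 in cKO 1, below the top 10% of any list. No annotation of repeats was used here, so how often these sequences occur in the genome was not looked at.

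The summit lay near an end of the peak and not at its centre. Of the peaks in all 3 lists, 6.27%, 7.25% and 6.68% in the cKO 1, cKO 2 and cKO 3 lists had their summit in the central 50% of the peak, against 26.2%, 53.9% and 44.2% of the lone peaks. In peaks of all 3 lists the summit was a median of 20, 17 and 19 bp from the nearer end. Its side was the same in each mouse: 8458 of the 8698 regions in all 3 lists (97.2%) had the summit at the same side in every list, 4327 to the left and 4131 to the right on the reference strand. Within genes read in 1 direction, 50.4%, 50.7% and 50.3% of the recurrent summits lay at the downstream side, close to an even split. The central summit became rare with fold for both kinds of peak. Within groups of 10% by fold, recurrent peaks had it less often than lone peaks in 1 of 10 groups in cKO 1, 4 of 5 in cKO 2 and 7 of 8 in cKO 3.

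Most recurrent regions stood alone along the chromosome. The median gap to the nearest other recurrent region was 50.3 kb, and 90% of the regions had a gap above 8.67 kb. Within 10 kb of another lay 1907 regions, 11.8% (95% Wilson interval 11.3 to 12.3%, counting error only). The share was 7.20% without cKO 1 and 7.52% without cKO 3, when a region had to be in both lists left. Regions in all 3 lists, which are fewer, had a median gap of 91.7 kb, and 6.91% of them lay within 10 kb of another. Lone regions, which are more numerous, had a median gap of 38.4 kb to the nearest lone region, with 16.2% within 10 kb. The spacing thus went with the number of regions in each set. Chaining gaps of up to 10 kb gave 64 clusters of 3 or more regions, which held 287 regions, 1.78% of all recurrent ones. Of these clusters, 54 had just 3 regions, and 3 had at least 10.

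**Figure D3:**
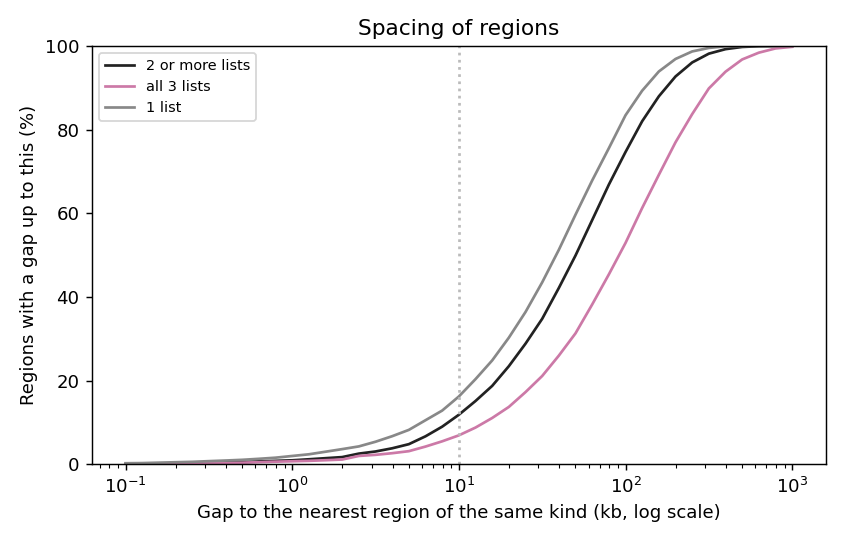
Share (%) of regions whose nearest region of the same kind lies within a given gap (kb, log scale), for regions in 2 or more lists, in all 3 lists and in 1 list; the dotted line marks 10 kb. At 10 kb the share is 11.8% for 2 or more lists, 6.91% for all 3 lists and 16.2% for 1 list.

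The largest cluster lay in Snhg14, a long non-coding RNA of the imprinted region that is lost in Prader-Willi syndrome in people, whose introns carry arrays of small nucleolar RNAs (snoRNAs, which guide the modification of other RNAs). It had 45 recurrent regions over 131 kb (chr7:59674092-59805314), 42 of them in all 3 lists. A further 18, of which 17 in all 3 lists, lay over 48.3 kb further along the chromosome (chr7:59857318-59905593). Median folds in the first cluster were 19.9, 16.7 and 20.2 in the cKO 1, cKO 2 and cKO 3 lists, and in the second 21.8, 17.0 and 20.2. Snhg14 as a whole had 68 recurrent regions, 61 of them in all 3 lists, from 69, 64 and 71 peaks.

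The regions in Snhg14 were spaced like the snoRNA genes. Regions in the first cluster were a median of 2531.5 bp apart, and the snoRNA genes in it 2527.5 bp; in the second the medians were 2543 and 2528 bp. The median distance from a snoRNA gene to the nearest region was 689 bp in the first cluster and 692 bp in the second. RefSeq lists 206 snoRNA genes in the Snhg14 span, of which 17 are named Snord116l. Of the 206, 70 lie between the ends of the clusters, and 62 of these had a region within 1 kb. The other 136 lie outside, and 0 of them had a region within 1 kb. The copies of the array resemble each other closely. The handling of reads that match several copies was not given in the sources used here, and the count of separate sites is uncertain.

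The remaining large clusters differed in strength. At the start of the chromosome 9 assembly, 29 recurrent regions lay over 38.1 kb (chr9:3000078-3038221), with median folds of 3.32, 3.52 and 3.45 in the cKO 1, cKO 2 and cKO 3 lists, near the bottom of each list. On chromosome 13, 6 regions (chr13:67944235-67981609) lay a median of 5714.5 bp apart with median folds of 20.04, 18.2 and 16.5. On chromosome 2, 5 regions (chr2:181917289-181932506) had median folds of 5.07, 9.39 and 7.40. A smaller cluster of 4 regions overlapped Rn18s-rs5, which RefSeq lists as a pseudogene of the ribosomal RNA of the small subunit (chr17:39843026-39848765), with median folds of 20.4, 6.11 and 5.48. That cluster was chosen after its values were seen. In bins of 1 Mb the recurrent regions had a mean of 6.70 and a median of 6 per bin. Their variance was 1.64 times the mean, or 1.38 times without the 3 largest clusters, where an even random scatter gives 1. For lone regions it was 1.14 times the mean, and for all peaks of the cKO 1, cKO 2 and cKO 3 lists 1.54, 1.45 and 1.48 times. A ratio above 1 was thus not particular to recurrent regions. The fullest bins held 68 regions at Snhg14, 32 at the start of chromosome 9 and 28 on chromosome 8 in a stretch of defensin genes, which encode antimicrobial peptides.

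The density of recurrent regions differed little between chromosomes. Their density ran from 5.94 per Mb on chromosome 14 and 5.96 per Mb on chromosome 12 to 7.34 per Mb on chromosome 17 and 7.53 per Mb on chromosome 11. The ratio of highest to lowest was 1.27, and the mean over 19 chromosomes was 6.74 ± 0.459 per Mb (SD). Without cKO 1 the ratio was 1.36. All peaks of each list gave ratios of 1.17, 1.27 and 1.20 in the cKO 1, cKO 2 and cKO 3 lists. The share of a chromosome's regions that were recurrent ran from 38.9% to 47.0%. Density over the 19 chromosomes went with the share of the chromosome in gene spans, with Spearman's rho of 0.546, but for all peaks of each list rho was 0.530, 0.042 and 0.481 in the cKO 1, cKO 2 and cKO 3 lists. Chromosomes share the libraries, so these are descriptions.

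**Figure D4:**
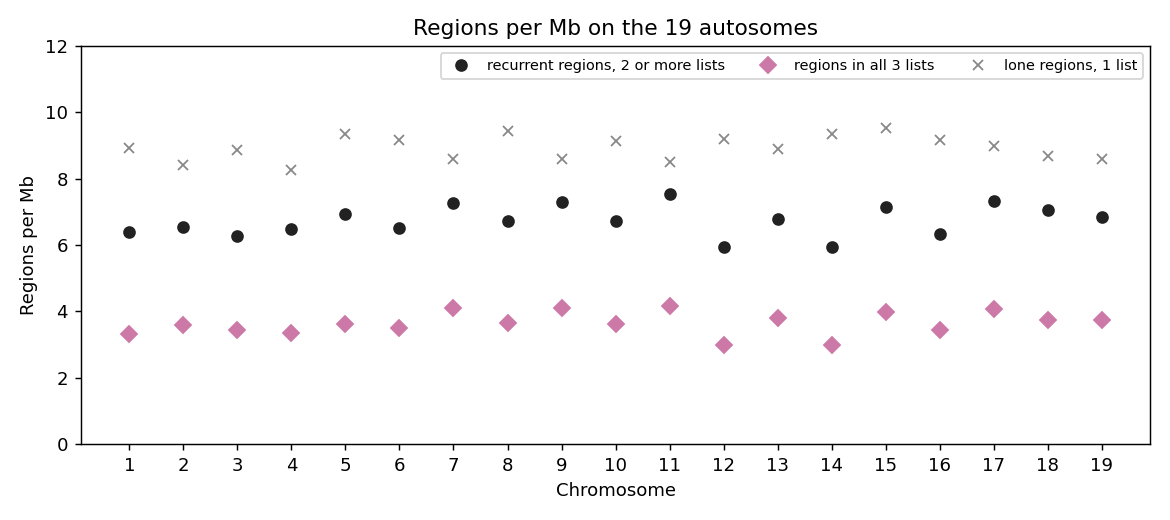
Regions per Mb on each autosome: recurrent regions (circles), regions in all 3 lists (diamonds) and lone regions (crosses). Recurrent regions run from 5.94 per Mb on chromosome 14 to 7.53 per Mb on chromosome 11.

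Recurrent regions lay at genes about as often as gene spans cover the chromosomes. A region was placed at a gene when it touched a protein-coding gene of RefSeq extended by 1 kb on each side. That held for 45.1% of recurrent and 41.5% of lone regions, and such extended spans take up 42.3% of the chromosomes. By list, 45.6%, 43.9% and 45.2% of the recurrent peaks of cKO 1, cKO 2 and cKO 3 were at genes, against 44.8%, 31.0% and 38.8% of the lone peaks. The difference was 6.69 ± 6.10 percentage points (SD, n = 3), positive in 3 of 3 lists and 0.755 points in cKO 1 (exact sign-flip permutation, two-sided, p = 0.25, the smallest possible). Leaving out cKO 1, cKO 2 or cKO 3 gave 4.90, 4.29 and 6.49 points (exact p = 0.5, 0.5 and 1, where 0.5 is the smallest for 2 lists), and without cKO 3 the lists left differed in sign. With lists of equal length it was 2.76 points, with a negative value in at least 1 list (exact p = 0.75).

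Start sites were not a main place of recurrent regions. On the 18 chromosomes with promoter windows in the table (chromosome 18 was not used here), 1.10% of the recurrent and 1.19% of the lone regions had their midpoint within 500 bp of a start site. The median distance was 73.3 kb for recurrent and 90.3 kb for lone regions. Recurrent regions touched 160 of 31396 promoter windows (0.510%), of 98 protein-coding genes among 16457 with a window. Counted per Mb, midpoints were denser inside the windows than along these chromosomes, 11.2 against 6.70 per Mb for recurrent regions, from 97 midpoints. For lone regions the densities were 13.3 and 8.93 per Mb, from 115 midpoints. The 160 windows were touched by 138 regions, so some windows shared a region and they are not independent. Windows touched over at least 100 bases numbered 112. Of these, 17.9% (20 windows) had the letters CCGGAAG, the core of sites of ETS factors, on either strand, against 9.0% of all windows. CCAAT, the CCAAT box, was in 49.1% of the 112 (55 windows) and in 37.3% of all windows. Both motifs were chosen after the sequences were seen, they share no stretch of 3 letters on either strand, and a match is not a site of binding.

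The share of genes with a recurrent region increased with gene length. Of 20665 protein-coding genes, 4580 (22.2%) had at least 1 recurrent region, and 2899 (14.0%) had a region in all 3 lists. Regions shared by cKO 2 and cKO 3 reached 2971 genes, so leaving cKO 1 aside lowers the number by over 1.5 times. By gene length, the share with a recurrent region was 4.84% under 10 kb, 17.9% from 10 to 50 kb, 48.6% from 50 to 200 kb, 87.2% from 200 to 500 kb and 96.8% over 500 kb. For a region in all 3 lists the shares in these classes were 2.83%, 9.87%, 30.1%, 69.3% and 92.1%, and for a region shared by cKO 2 and cKO 3 they were 2.85%, 10.1%, 31.2%, 71.1% and 92.1%. Per length the order turned round: genes under 10 kb had 1.18 recurrent regions per 100 kb of gene, the next classes 0.806, 0.738 and 0.733, and genes over 500 kb had 0.643. The count includes the 1 kb on each side of a gene but the length leaves it out, which raises the shortest class most. The part of this in the order was not tested. Genes with a recurrent region had a median length of 67.1 kb, against 17.5 kb for all genes, and 3179 of the 4580 had a single one.

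**Figure D5:**
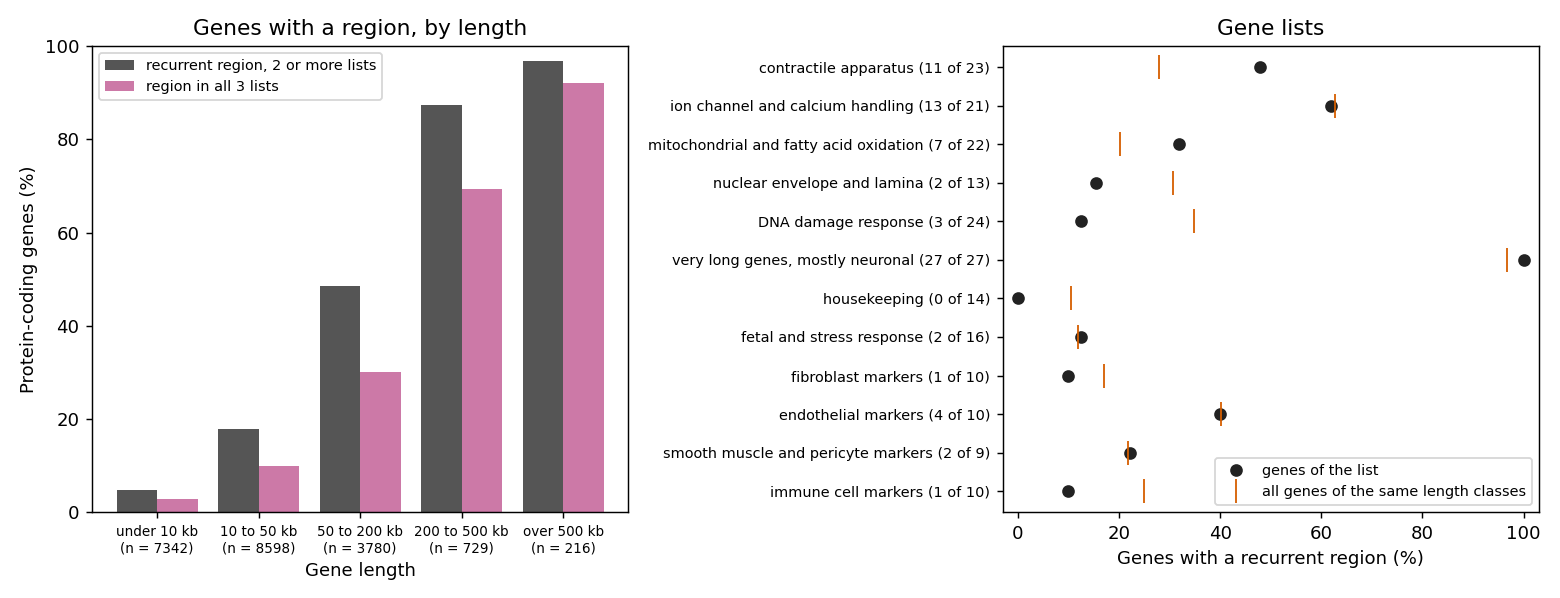
Left, share (%) of protein-coding genes with a recurrent region (grey bars) and with a region in all 3 lists (pink bars) by gene length, with the number of genes under each class; it runs from 4.84% under 10 kb to 96.8% over 500 kb for recurrent regions. Right, share (%) of each gene list with a recurrent region (circles) beside that of all genes of the same length classes (vertical marks).

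Lmna itself, where Cre cuts, had no recurrent region and 1 peak, in cKO 1. Myh6, whose promoter drives Cre and which encodes the main motor protein of adult mouse heart muscle, had 1 recurrent region, from cKO 1 and cKO 3. The END-seq lists hold only peaks and so do not check the deletion.

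The 10 genes with the most recurrent regions were all longer than 500 kb. Macrod2, which encodes a hydrolase of ADP-ribose and spans 1998 kb, had 24 recurrent regions, 12 of them in all 3 lists, from 36, 13 and 27 peaks in the cKO 1, cKO 2 and cKO 3 lists. Rbfox1, a splicing factor of neurons and heart, had 18, of which 10 in all 3 lists. Cdh13, a cadherin anchored to the membrane by a lipid, and Tenm3, a teneurin of synapse formation, had 17 each, with 10 in all 3 lists in each. Dlg2 (a scaffold of synapses) had 14, Cdh12 (a cadherin) and Nkain2 (a partner of the sodium pump) 13 each, Lsamp (a neuronal adhesion protein) 12, and Asic2 (an acid-sensing channel) and Camta1 (a transcription activator) 11 each. Shared by cKO 2 and cKO 3 were 12 in Macrod2 and Nkain2, 10 in Rbfox1, Cdh13 and Tenm3, 9 in Dlg2 and Cdh12, 7 in Lsamp and Camta1, and 6 in Asic2. Per 100 kb these 10 genes had from 0.546 recurrent regions in Lsamp to 1.43 in Cdh13, against 0.643 over all genes longer than 500 kb. They were chosen by their number of recurrent regions, which favours genes dense in them, so a value above 0.643 is no separate result. At the other end, the longest gene with no recurrent region was Iqschfp (734 kb), with 8, 1 and 2 peaks from the cKO 1, cKO 2 and cKO 3 lists, followed by Arhgap15 (647 kb) with 4, 1 and 1; these were chosen after their values were seen.

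The densest genes of 50 kb or more were a different group. Sfi1, a protein of centrosomes, had 5 recurrent regions in 71.5 kb, and Cdc20b had 6 in 86.0 kb, all 6 in all 3 lists; 4 of these formed a cluster over 10.6 kb (chr13:113081031-113091621). Jph2, which encodes junctophilin of the contacts between the cell membrane and the calcium stores of heart muscle, had 3 in 61.8 kb, all in all 3 lists. Igfbp7 (a secreted binding protein of growth factors), Smyd4 (a methyltransferase family member), Elp3 (a subunit of Elongator) and Spg11 (a protein of lysosomes) each had 3, all in all 3 lists. Slco2b1, an organic anion transporter, had 3, 2 of them in all 3 lists. Kif28 and Medag each had 3 and none in all 3 lists; Kif28 had no region shared by cKO 2 and cKO 3, and Medag had 1. Sfi1 and the other dense genes had from 4.55 to 6.99 recurrent regions per 100 kb, against 0.747 over all genes. They were chosen by this density, so a value above that of all genes was given by the choice. Sfi1 lies near the start of the chromosome 11 assembly (chr11:3131850-3203347), and how often its sequence occurs in the genome was not looked at.

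Genes of the heartbeat were hit to differing degrees. For each list of genes, the number with a recurrent region is set beside a number by length. The latter is what the shares of all genes of the same length classes add up to, as a description with no test. It holds for regions in 2 or more lists. For regions shared by cKO 2 and cKO 3 the class shares are lower, and no number by length was worked out. Of 23 genes of the contractile apparatus, 11 had a recurrent region, against 6.43 by length, and 8 had a region shared by cKO 2 and cKO 3, the same number as in all 3 lists. The sarcomere spring Ttn had 4 from 9, 1 and 7 peaks in the cKO 1, cKO 2 and cKO 3 lists, with 1 in all 3 lists. Nebl, a nebulin relative of the Z-disc, had 5, with 1 in all 3 lists. Actn2, the actinin that crosslinks actin in the Z-disc, had 2, both in all 3 lists, and Myom2 of the M-band had 2, none of them shared by cKO 2 and cKO 3. Of the 7 genes of this list under 10 kb, Tnnc1 (troponin C) and Myl3 (a myosin light chain) had 1 each in all 3 lists, and the other 5 had none.

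Of 21 ion channel and calcium handling genes, 13 had a recurrent region, against 13.2 by length, and 11 had a region shared by cKO 2 and cKO 3. Cacnb2 and Cacna2d1, auxiliary subunits of the L-type calcium channel, had 6 each, with 5 and 4 in all 3 lists. Ryr2, the calcium release channel of the sarcoplasmic reticulum, also had 6, of which 2 in all 3 lists. Cacna1c, the pore of the cardiac L-type channel, had 4 from 8, 1 and 8 peaks in the cKO 1, cKO 2 and cKO 3 lists, with 1 in all 3 lists. Among those with none were Kcnq1, a potassium channel, and Atp2a2, the calcium pump of the sarcoplasmic reticulum.

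Of 22 mitochondrial and fatty acid oxidation genes, 7 had a recurrent region, against 4.43 by length, and 4 had a region shared by cKO 2 and cKO 3. Ppargc1a, a coactivator of mitochondrial genes, had 6, with 2 in all 3 lists, and Ppara, the nuclear receptor of fatty acid oxidation, had 2, none of them shared by cKO 2 and cKO 3. Esrra, a nuclear receptor that works with Ppargc1a, and Ogdh had 1 each in all 3 lists, and Acadl, a dehydrogenase of long-chain fatty acids, had 1.

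Genes of the nuclear envelope and of the DNA damage response had few. Of 13 nuclear envelope and lamina genes on the autosomes, 2 had a recurrent region, against 3.99 by length. Syne1, which encodes nesprin of the outer nuclear membrane, had 9 in 531 kb, with 5 in all 3 lists, and Lmnb1, the gene of lamin B1, had 2 in all 3 lists. Of 24 DNA damage response genes, 3 had one, against 8.36 by length. These were Trp53bp1 and Xrcc4 with 2 each and Atm, the kinase that senses double-strand breaks, with 1. In both lists each gene named here also had a region shared by cKO 2 and cKO 3. Of 14 housekeeping genes none had a recurrent region, against 1.46 by length. Of 16 fetal and stress response genes 2 did, against 1.91, and neither had a region shared by cKO 2 and cKO 3. They were Rcan1, an inhibitor of calcineurin, with 2 and Acta1, skeletal actin, with 1. All 27 very long, mostly neuronal genes had one, against 26.1 by length, and all 27 had a region shared by cKO 2 and cKO 3.

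Marker genes of other heart cells were set beside the same shares. Recurrent regions fell in 4 of 10 endothelial markers (4.02 by length), 1 of 10 fibroblast markers (1.71), 2 of 9 smooth muscle and pericyte markers (1.97) and 1 of 10 immune markers (2.50). From regions shared by cKO 2 and cKO 3 the numbers were 3, 1, 0 and 1, with no number by length beside them. Vwf of endothelial cells had 2, none of them shared by cKO 2 and cKO 3, Postn of fibroblasts had 1, which was shared, and Ptprc of leukocytes had 4, of which 2 were shared. A peak does not tell which cell type the DNA came from, and the share of other cells in the preparations was not tested. The median number of recurrent regions per gene was 0 in every list except the ion channel list (1) and the very long genes (9), and it was 0 over all protein-coding genes.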

How the data were processed

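END-seq libraries of 3 Myh6-Cre:LmnaF/F mice were analysed as deposited peak lists, 1 per library, and each library was taken as 1 replicate from its label. The authors gave each peak, per the file headers, a fold, which is a linear ratio over background, its −log10 p-value and q-value, a score of the caller and a summit position. Every deposited peak had a q of at most 0.01. The build is mm10, and FastQC, DiffBind and SEACR are named in the submitters' processing notes with neither version nor role. An aligner was not given in the sources used here. Folds and q-values ranked peaks within a list, and the score was not used further. Wild-type lists served only to count identical intervals: cKO 1 shared 4, 171 and 55 with WT 1, WT 2 and WT 3, cKO 2 shared 0, 145 and 69, and cKO 3 shared 2, 190 and 55. Depth is unknown.

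Peaks were joined by an overlap of 1 bp across lists. Genes, start sites and sequences came from RefSeq (GRCm38.p6); that gene table holds no exons, so a region is described only as at a gene or outside it. Coordinates are 1-based. Gene lists had 203 entries, all matched, and 4 entries were off the autosomes. Values per list were compared by exact sign-flip permutation over 3 lists, which cannot go below p = 0.25. Named genes were Lmna and Myh6, the 10 with the most recurrent regions, the 10 densest of at least 50 kb, the 10 with the strongest regions in all 3 lists and up to 4 per gene list; other genes named were chosen after their values were seen. The members, lists and tests were chosen with earlier results of these data known. Linking, gaps and gene hits were tested on simulated peaks. The tools were scipy 1.17.1, pandas 2.3.3, numpy 2.4.6 and, for plots, matplotlib 3.10.9, under Python 3.11.15.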

Additional observations from a re-analysis of the deposited data

Results flagged for a closer look

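Outside chromosomes 1 to 19, recurrent regions were also found, above the limit of 3 counts that a count of 0 allows. Chromosome X had 696 recurrent regions of 1677, with 422 in all 3 lists. Chromosome Y had 8 recurrent regions of 512, with 4 in all 3 lists. Unplaced and mitochondrial sequences had 117 recurrent regions of 202, with 83 in all 3 lists.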

How the results depend on the processing

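Of 90 alternatives over 9 results, 69 changed neither the direction nor a value beyond its set range, 21 moved it, and 0 reversed it. Only the results on fold rank, width and place at genes could be scored as reversed, by the sign of the mean. A single list with the other sign was not counted as reversed. Leaving out each list in turn, so that a region had to be in both others, gave 9149 to 14404 recurrent regions (9149 without cKO 1 and 9961 without cKO 3), shares of peaks in another list from 56.4 to 59.4%, 7.20 to 11.1% of regions within 10 kb of another, chromosome ratios from 1.33 to 1.36, and 2970 to 4289 genes with a recurrent region (2970 without cKO 1). The 9961 and 2970 differ by 1 from the 9960 regions and 2971 genes given for pairs of lists above, where peaks of the other list also joined regions. Requiring all 3 lists gave 8698 regions, a share of 46.6%, 6.91% within 10 kb, a ratio of 1.39 and 2899 genes. Lists of equal length gave 7.92% within 10 kb and a ratio of 1.4. Joining peaks within 1000 bp gave 11.1% within 10 kb. A distance of 5 kb in place of 10 kb gave 4.80%, one of 50 kb gave 49.8%, and leaving out the 3 largest clusters, a setting chosen after seeing the data, gave 11.3%. With chromosomes X and Y the ratio was 85.4, since Y had 8 recurrent regions. No paired analysis was possible because a single genotype is described. With unknown depth, longer lists and weaker peaks limit what a missing peak can show.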
